A study of Mus musculus with 8 samples.

Results

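The replication-dependent histone genes are the clustered genes that supply H1, H2A, H2B, H3 and H4 to newly copied DNA. They were taken as every gene symbol beginning with Hist1h, Hist2h, Hist3h or Hist4h, without pseudogene symbols marked -ps, and each symbol was represented by its locus with the highest mean. This gave 69 symbols of 34422 in the table, at 63 loci, since 11 of the symbols sat in loci that carried several members. By type there were 6 H1, 20 H2A, 18 H2B, 12 H3 and 13 H4 genes. By cluster, 56 genes belonged to Hist1h, 10 to Hist2h, 2 to Hist3h and 1 to Hist4h.

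Histone genes of this class are switched on as a cell enters S phase, when the doubled DNA has to be packed again into nucleosomes. H2A, H2B, H3 and H4 form the core around which DNA is wound, and H1 binds the linker where the DNA enters and leaves. Their messages mostly have no poly(A) tail. They end instead in a short conserved stem-loop that is bound by the stem-loop binding protein Slbp and is needed for their processing, translation and decay. Replacement histones such as H3f3a and H2afz are made by other genes, outside S phase as well. In the neonatal mouse heart, cardiomyocytes leave the cell cycle during the days after birth while other cardiac cells go on dividing.

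RNA was measured in whole hearts, freed of their atrial appendages, of male Hsd:ICR(CD-1) mice on postnatal day 1 (P1, 4 hearts) and day 7 (P7, 4 hearts). The labels name no treatment and no engineered allele. Each library came from 1 heart, and the stock is outbred. Total RNA was ribodepleted and not selected for poly(A), so tail-less histone messages could be sampled. Values are fragments per kilobase of locus, scaled to the mapped fragments of each library (FPKM). Cardiomyocyte genes were high in all 8 hearts: the adult-type myosin heavy chain Myh6 lay between 2533 and 5502 FPKM. A whole heart mixes cell types, so fewer cells of a type and less RNA per cell cannot be told apart.

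The precision behind the values was read from the FPKM steps of short loci. A single fragment on a locus of 480 bases was worth 0.14 to 0.243 FPKM, depending on the heart, and the step shrank with locus length after 160 to 200 bases had been taken off. That subtraction is large against histone genes, whose longest annotated transcripts were as short as 312 bases for Hist1h4k and 339 bases for Hist1h2al. By this measure Hist1h2af, for example, rested on 290.8 to 1263.2 fragments per heart. No such estimate was made for loci that share a span with others, among them Hist1h1e, Hist1h2bc and the locus of Hist2h2aa1 and Hist2h3c1.

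The stem-loop was found in the annotated transcripts of 46 of the 69 members (GENCODE M21, GRCm38). It consists of a stem of 6 base pairs and a loop of 4 bases, and occurred in 8 spellings. The following 8 are shown because they belong to the loci that the results turn on and because their stems separate H4 from the other types; the capitals mark the 16 bases of the stem-loop.
Hist1h1e: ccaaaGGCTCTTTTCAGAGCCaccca
Hist1h1c: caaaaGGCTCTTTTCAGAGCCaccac
Hist2h2aa1: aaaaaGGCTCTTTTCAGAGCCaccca
Hist2h3c1: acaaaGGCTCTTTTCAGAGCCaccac
Hist1h3f: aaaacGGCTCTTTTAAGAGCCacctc
Hist1h2bb: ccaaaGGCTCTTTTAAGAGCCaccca
Hist1h4b: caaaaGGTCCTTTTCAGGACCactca
Hist1h4d: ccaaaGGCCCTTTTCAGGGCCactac

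These lie at chr13:23621777-23621802 on the minus strand for Hist1h1e, chr13:23739507-23739532 for Hist1h1c, chr3:96246027-96246052 for Hist2h2aa1, chr3:96247322-96247347 for Hist2h3c1, chr13:23544927-23544952 for Hist1h3f, chr13:23747198-23747223 for Hist1h2bb, chr13:23757361-23757386 for Hist1h4b and chr13:23581945-23581970 for Hist1h4d, all on the plus strand except Hist1h1e. The stem opened with ggctct in all 34 stem-loops found in H1, H2A, H2B and H3 genes. In the 12 found in H4 genes it opened with ggccct in 10 and ggtcct in 2, with the matching bases on the other side. Among the called loci described below, Hist1h1e and both genes of the shared Hist2h locus had the most frequent spelling, which 26 members carried. No match was found in the annotated models of Hist1h2af and Hist1h2bc. The model of Hist1h2af stops at 399 bases, and that of Hist1h2bc is a spliced model of 1156 bases. The processed message normally ends just after the stem-loop, but many annotated models do not. Of the 58 loci with a single member, 19 had a model ending within 100 bases after it, 16 had one running further and 23 had none in the model; the tested loci of these groups had median log2 fold changes of 0.43, 0.35 and 0.33 between the stages. Model length enters FPKM, so levels of members with long models are not fully comparable with the rest.

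Promoter sequences also differed by histone type. RefSeq gave promoter windows (GRCm38.p6, 250 bases before to 50 after the gene start) for 61 members, 62 windows in all. They were searched on both strands for the CCAAT box (CCAAT), the TATA box (TATAAA), the octamer known from H2B promoters (ATTTGCAT) and the AC box known from H1 promoters (AAACACA); none of these motifs contains another. CCAAT was present in 53 of the 62 windows against 37.4% of all 32851 windows of that length, and TATAAA in 35 against 13.6%. All windows of H1, H2A, H2B and H3 genes held CCAAT. Only 3 of the 12 H4 windows did, or 25%, which is below the share of all windows. The octamer occurred in 14 windows, 7 of H2A and 7 of H2B genes, against 1.74% of all windows. The AC box was found in 5 of the 6 H1 windows against 7.18% of all. Windows of facing H2A and H2B genes overlap, so that a motif between them is counted in both. The promoters of Hist1h1e (chr13:23622509-23622808, minus strand) and Hist1h1c (chr13:23738557-23738856, plus strand) are shown because they belong to the H1 loci whose P7 values all lay above the P1 values, and that of Hist1h2ac (chr13:23683910-23684209, minus strand) because it spans the gap to the called gene Hist1h2bc. The capitals mark the motifs, read on either strand.
Hist1h1e: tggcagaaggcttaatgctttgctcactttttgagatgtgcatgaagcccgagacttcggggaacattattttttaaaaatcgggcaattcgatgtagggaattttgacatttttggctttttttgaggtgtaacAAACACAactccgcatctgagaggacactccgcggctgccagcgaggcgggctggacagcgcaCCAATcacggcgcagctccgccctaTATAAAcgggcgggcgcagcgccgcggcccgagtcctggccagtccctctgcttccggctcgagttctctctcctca
Hist1h1c: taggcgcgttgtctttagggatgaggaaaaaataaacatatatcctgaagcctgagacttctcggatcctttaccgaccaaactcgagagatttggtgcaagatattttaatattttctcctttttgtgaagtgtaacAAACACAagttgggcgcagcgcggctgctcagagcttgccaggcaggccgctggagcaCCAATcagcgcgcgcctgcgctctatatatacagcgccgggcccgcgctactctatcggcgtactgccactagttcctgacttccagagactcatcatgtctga
Hist1h2ac: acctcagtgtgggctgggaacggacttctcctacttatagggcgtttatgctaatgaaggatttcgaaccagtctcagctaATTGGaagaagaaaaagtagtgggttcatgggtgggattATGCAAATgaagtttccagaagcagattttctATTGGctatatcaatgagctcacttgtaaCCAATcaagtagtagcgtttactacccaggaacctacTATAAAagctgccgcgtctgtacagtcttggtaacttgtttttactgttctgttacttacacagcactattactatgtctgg

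In both H1 promoters an AC box stood upstream of a CCAAT box, at -115 and -52 from the gene start in Hist1h1e and at -112 and -54 in Hist1h1c. In the Hist1h2ac window the octamer lies between CCAAT boxes in the gap that this gene shares with Hist1h2bc.

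The first question was whether histone transcripts differed between P1 and P7 hearts. Of the 63 loci, 57 reached 1 FPKM in at least 1 heart and were tested, within a limma fit on log2(FPKM + 1) over all 43172 such loci. Loci whose stage means differed by 1.5 times or more, with a p-value below 0.05 after Benjamini-Hochberg adjustment over all of them, were called. Of the 57 histone loci, 4 were called and all 4 rose in P7: Hist1h1e, Hist1h2af, Hist1h2bc and the locus shared by Hist2h2aa1 and Hist2h3c1. The background was 7.74% of the tested loci with a gene symbol called higher in P7, and 3.45% of all tested loci, so 4 of 57 is near what loci in general showed. None of the 57 was called lower, against 0.401% of loci with a symbol. A raw p under 0.05 with a higher P7 value was met by 14 histone loci, where the background was 25.6%, and with a lower value by 1, Hist1h2al, against 4.1%. The groups did not overlap at 8 of the 57: at 7 all P7 hearts were above all P1 hearts (background 17.3%), and at Hist1h2al all were below (2.69%).

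With the values as deposited, most histone loci leaned upwards without passing the test. The log2 fold change was positive at 51 of 57 loci, against 67.6% of loci with a symbol, and its median was 0.39 against 0.19 for those loci. That general shift depended on scaling between hearts: with median-ratio scaling it was 0.00, the median of the histone loci was 0.16 and 39 were positive, and with quantile normalization the values were 0.08, 0.21 and 42. Of the loci with a symbol, 50.2% were positive with median-ratio scaling and 57.1% with quantile normalization. With median-ratio scaling 57 histone loci were again tested, though not all the same ones. A correction for GC content, chosen after the data were seen, left a histone median of 0.05 with 32 of 57 positive. For loci with a symbol the median was then 0.22 and 73.0% were positive, so the histone loci no longer leaned upwards more than loci in general. The sign was positive under all 4 treatments at 28 of the 57 loci, of which Hist1h4m and Hist2h2aa2 had no value with median-ratio scaling and could not be counted. Histone genes are rich in G and C, with median GC contents of 64.3% for H2A and 53.1% for H1 transcripts against 49.2% for the tested loci with a symbol.

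**Figure D1:**
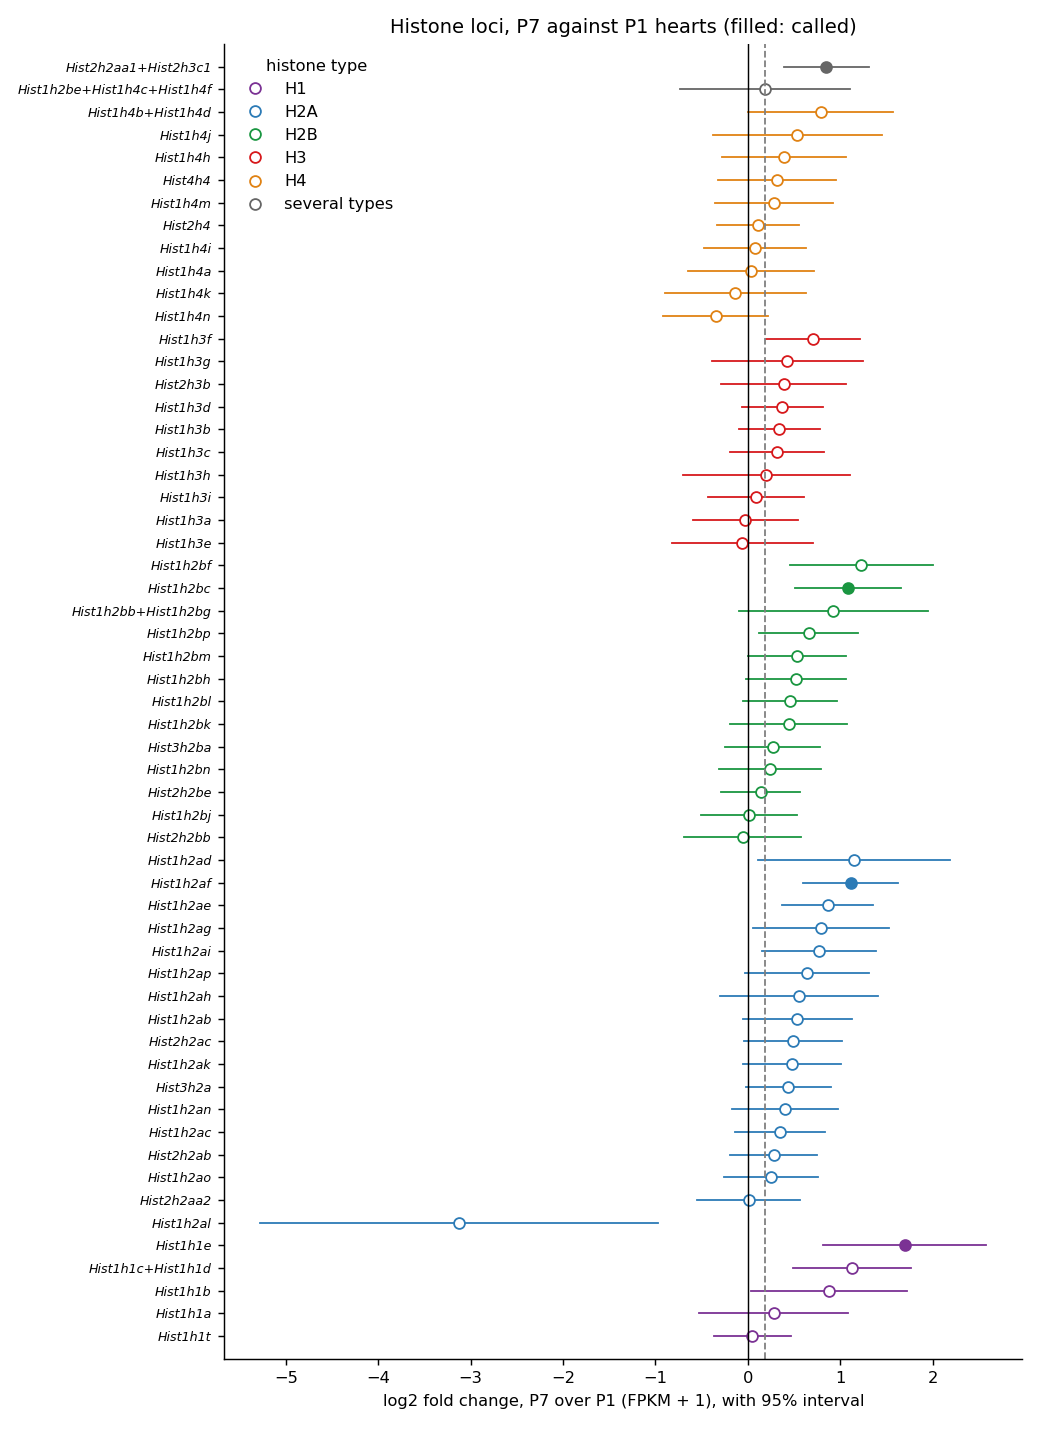
Log2 fold change of P7 over P1 on the FPKM + 1 scale for the 57 tested histone loci, grouped by type, with the 95% interval from limma; filled points are the 4 called loci, and the dashed line is the median of all tested loci with a gene symbol (0.19). Most points lie right of zero with intervals that cross it, and Hist1h2al stands far to the left.

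Of the linker histones, Hist1h1e had the largest rise of any histone locus. This gene encodes a somatic H1 subtype that is widely made in dividing cells. It measured 78.9, 41.2, 28.5 and 113 FPKM in the P1 hearts and 125, 136, 297 and 245 in the P7 hearts. Every P7 heart lay above every P1 heart, and P1 replicate 4 and P7 replicate 1 stood closest. This was a log2 fold change of 1.70 ± 0.41 (SE), with an adjusted p of 0.0388 (limma). With the GC correction it was 1.66, with an adjusted p of 0.065. The annotated Hist1h2be model reaches into Hist1h1e on the same strand, so reads there could be credited to either.

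Hist1h1c and Hist1h1d, which encode somatic H1 subtypes of the same kind, shared a locus. It stood at 162, 92, 74 and 142 FPKM in P1 and 232, 163, 343 and 280 in P7. The groups did not overlap, though P1 replicate 1 and P7 replicate 2 differed by less than 1 FPKM. The log2 fold change of 1.13 ± 0.29 (SE) had an adjusted p of 0.0537 (limma) and was not called. The locus was called with median-ratio scaling at an adjusted p of 0.04 and with quantile normalization at 0.0382. With the GC correction it was not called, at 1.03 and an adjusted p of 0.103. Hist1h1b, another somatic subtype, gave 156, 77.2, 62.1 and 145 FPKM in P1 and 136, 107, 343 and 254 in P7. Its groups overlapped, and a log2 fold change of 0.88 ± 0.39 (SE) had an adjusted p of 0.251. Hist1h1a ranged from 21.7 to 60.8 FPKM in P1 and from 25.3 to 70.1 in P7. The testis-specific Hist1h1t stayed between 0.59 and 1.15 FPKM throughout.

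Summed over its 5 loci, H1 measured 434.8, 236.3, 186.9 and 461 FPKM in P1 and 520, 431.4, 1054 and 836.1 in P7, with an overlap at P7 replicate 2. H1 made up 3.98 to 8.26% of the histone total at P1 and 7.34 to 11.2% at P7. The median log2 fold change of the H1 loci was 0.88, and it stayed between 0.58 and 0.67 under the other treatments of the values. It was the largest median of the types under each of them. All 5 H1 loci had their lowest P1 value in replicate 3.

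Of the H2A genes, Hist1h2af was called. It encodes a canonical H2A. Its values were 118, 112, 129 and 99.5 FPKM in P1 and 203, 177, 331 and 318 in P7. The P1 hearts were close together and all below the P7 hearts, which spread over a wider range. Hist1h2af thus had a log2 fold change of 1.11 ± 0.24 (SE), with an adjusted p of 0.0267 (limma). With the GC correction it was 0.69, with an adjusted p of 0.211, and with median-ratio scaling 0.87, with an adjusted p of 0.0542. About 65.3% of the 100-base windows of its annotated transcript occur in other histone genes too, so the way shared reads were assigned bears on this value. Across the loci with a single member, the median log2 fold change was 0.40 over the 21 tested loci with at least 50% of such windows shared and 0.35 over the 31 with fewer.

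Hist1h2al moved the other way. It had 394, 292, 219 and 189 FPKM in P1 and 0.652, 71.8, 95 and 72.2 in P7. Every P7 heart was lower than every P1 heart, and P7 replicate 1 held only about 2 fragments where the other P7 hearts held 259.7 to 311.6. The log2 fold change was -3.12 ± 0.99 (SE) and the adjusted p was 0.111 (limma), which missed the threshold; it stayed between -3.77 and -3.12 under the alternatives that used all hearts. Without P7 replicate 1 the fold change was smaller in size, -1.72, and the adjusted p was 0.0262. This gene is unlike the other members: it lies at chr13:51202727-51203065, far outside the Hist1h cluster, and GENCODE M21 annotates it as a processed pseudogene. A predicted microRNA, Gm44341, is annotated on the opposite strand within it. This is not particular to Hist1h2al: most H2A members have such a microRNA, the called Hist1h2af included. The strand setting of the counting is not given in the sources used here.

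The H2A locus with the highest mean over all 8 hearts was Hist2h2ac, although Hist1h2al had the higher mean at P1 and Hist1h2af at P7. Hist2h2ac had 199, 154, 142 and 175 FPKM in P1 and 241, 148, 314 and 263 in P7. The groups overlapped through P7 replicate 2, and the log2 fold change was 0.49 ± 0.25 (SE; adjusted p = 0.312, limma). Hist1h2ae was higher in every P7 heart, at 8.5 to 15.5 FPKM against 4.14 to 7.17, and its adjusted p of 0.0575 missed the threshold. Of the 17 tested H2A loci, 16 had a positive fold change, with a median of 0.49 that fell to 0.12 with the GC correction. The sum of all H2A loci overlapped between the stages, at 770.6 to 1077 FPKM in P1 and 693.5 to 1429 in P7.

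Of the H2B genes, Hist1h2bc was called. Its values were 29.3, 22.9, 20.5 and 21.7 FPKM in P1 and 54.2, 28.8, 74.8 and 56.6 in P7. P7 replicate 2 fell just below the highest P1 heart, and the other P7 hearts were well above all P1 hearts. The log2 fold change was 1.09 ± 0.26 (SE), with an adjusted p of 0.0411 (limma), and it was the only histone locus called after the GC correction, at 1.25 and an adjusted p of 0.0428. Hist1h2bf was higher in all P7 hearts (36.6 to 56 FPKM) than in the P1 hearts (7.33 to 29.6), and at a log2 fold change of 1.23 ± 0.36 (SE) its adjusted p was 0.0824.

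The most abundant H2B loci did not separate the stages. Hist2h2bb had 1271, 1170, 1263 and 862 FPKM in P1 and 884, 693, 1611 and 1414 in P7. The P7 hearts lay on both sides of the P1 hearts: the log2 fold change was -0.05 ± 0.29 (SE), its 95% interval ran from -0.69 to 0.58, and the means were 1142 ± 192 and 1150 ± 433 FPKM (SD, n = 4). An antisense gene and a long non-coding gene are annotated over it, and the file gives it a span of 11.9 kb that also holds Hist2h3b. The locus of Hist1h2bb and Hist1h2bg gave 492, 350, 312 and 1380 FPKM in P1 and 1108, 505, 1888 and 915 in P7. P1 replicate 4 stood alone among its group and exceeded all P7 hearts but 1. Hist1h2bl, the next in level, had 209, 173, 189 and 179 FPKM in P1 and 228, 176, 343 and 318 in P7, with overlap at P7 replicate 2 (log2 fold change 0.46 ± 0.23 SE; adjusted p = 0.319, limma), and the fold change was -0.01 with the GC correction. H2B supplied the largest share of the histone total in 7 of the 8 hearts, between 36.6 and 47% in all, and in P7 replicate 1 H4 supplied more.

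No H3 locus was called by limma, and 1 had a raw p under 0.05. The most abundant was Hist1h3b, which encodes a canonical H3, with 21.6, 18, 28.1 and 21.7 FPKM in P1 and 36.9, 24.2, 27.2 and 26.3 in P7. The groups overlapped (log2 fold change 0.34 ± 0.20 SE; adjusted p = 0.375, limma). Hist1h3c and Hist1h3i, the next in level, had fold changes of 0.31 and 0.09 on the log2 scale, and those of Hist1h3b, Hist1h3c and Hist1h3i all turned negative with the GC correction. Hist1h3f was higher in every P7 heart, at 5.29 to 9.52 FPKM against 2.37 to 4.92, with a log2 fold change of 0.71 ± 0.23 (SE) and an adjusted p of 0.127. The H3 loci were the lowest of the core types: their sum reached only 100.9 to 144.6 FPKM in P1 and 95.85 to 189.7 in P7, or 1.76 to 3.08% of the histone total in each heart.

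No H4 locus was called by limma either, 1 had a raw p under 0.05, and all 10 had overlapping groups. Hist1h4b and Hist1h4d shared the histone locus with the highest mean over all 8 hearts, at 913, 691, 835 and 1603 FPKM in P1 and 2622, 836, 2050 and 1680 in P7. P1 replicate 4 lay within the P7 values and P7 replicate 2 within those of P1 (log2 fold change 0.79 ± 0.36 SE; adjusted p = 0.268, limma). At P1 Hist2h2bb was higher, with a mean of 1142 FPKM against 1010. The Hist1h4b and Hist1h4d locus made up 84.7% of the H4 total. Hist1h4h had a log2 fold change of 0.39 and Hist1h4a of 0.04, whereas Hist1h4k and Hist1h4n had -0.13 and -0.35; none of these passed the test. The median of the H4 loci was 0.20, and it was negative with median-ratio scaling (-0.10), quantile normalization (-0.04) and the GC correction (-0.03).

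**Figure D2:**
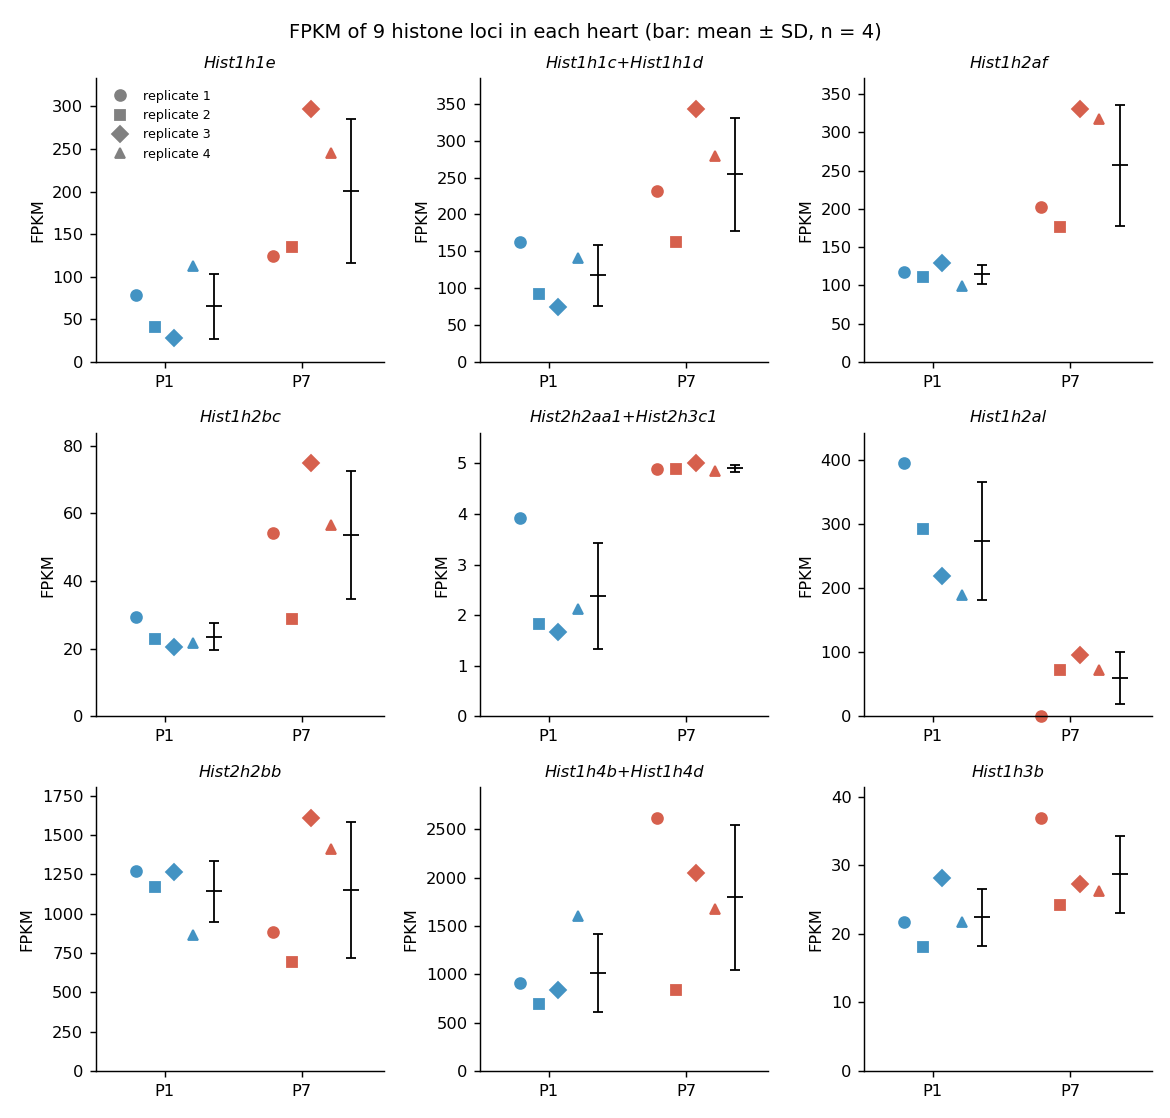
FPKM of 9 histone loci in each P1 and P7 heart on linear axes from 0, with a symbol per replicate number and the mean ± SD (n = 4) beside the points. The P7 points of Hist1h1e and Hist1h2af lie above all P1 points, those of Hist1h2al below them, and those of Hist2h2bb, Hist1h4b with Hist1h4d, and Hist1h3b overlap with them.

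**Figure D3:**
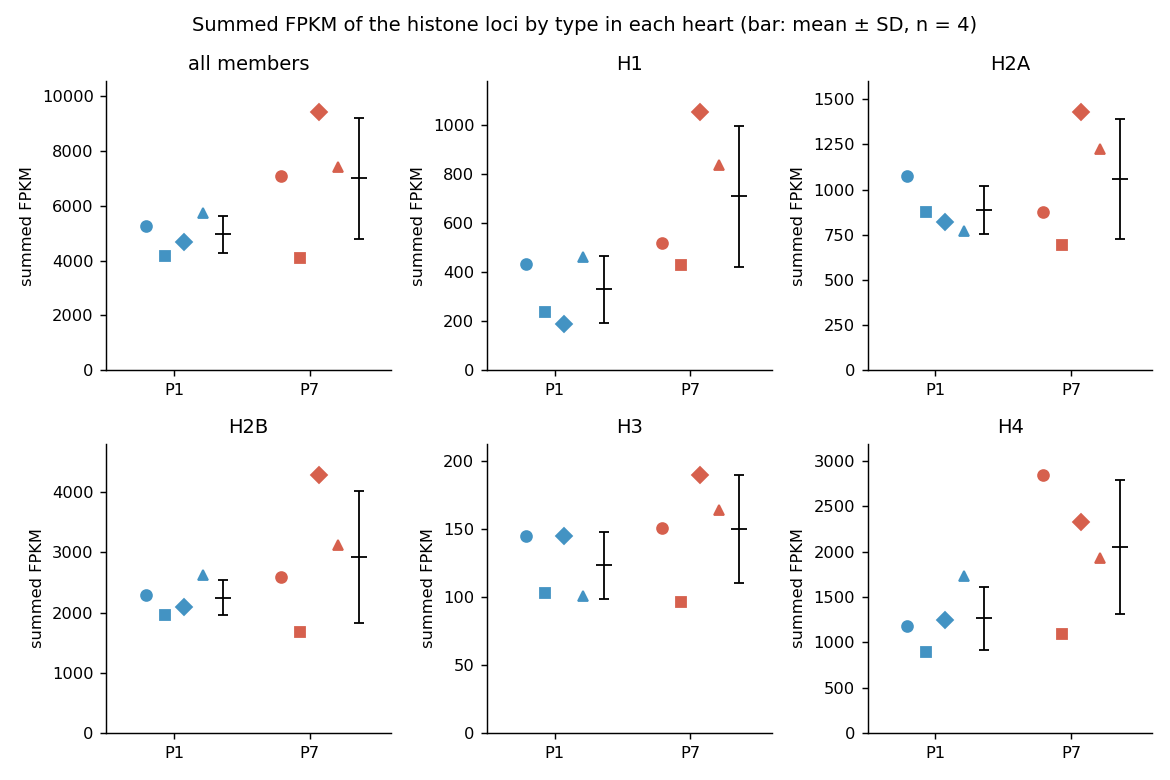
FPKM summed over all histone loci and over the loci of each type in every heart, with the mean ± SD (n = 4). The sum over all members was 4182 to 5723 at P1 and 4086 to 9424 at P7, and P7 replicate 2 was the lowest heart.

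By cluster, Hist1h on chromosome 13 held 55 of its 56 members within chr13:21715763-23934851, about 2.22 Mb. It had 3 of the 4 called loci, and 41 of its 46 tested loci had a positive log2 fold change, with a median of 0.44. The summed level of the cluster was 3554 ± 797 FPKM in P1 and 5482 ± 1740 in P7 (SD, n = 4), and 3 of the 4 P1 hearts exceeded P7 replicate 2. The loci of Hist1h1c with Hist1h1d, Hist1h2bb with Hist1h2bg and Hist1h4b with Hist1h4d also carry the symbol Gm11338. The file gives 16 loci, which carry 21 members, the same span of 206 kb (chr13:23551258-23757620). Hist1h1e, Hist1h2bc and the most abundant H2B and H4 loci of the cluster are among them, and how reads were divided within that span is not given in the sources used here.

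The Hist2h cluster on chromosome 3 (chr3:96219865-96270132) had 1 called locus, that of Hist2h2aa1 and Hist2h3c1, an H2A and an H3 gene. It measured 3.93, 1.82, 1.68 and 2.12 FPKM in P1 and 4.88, 4.88, 5 and 4.85 in P7. The P7 hearts were nearly equal and all above the P1 hearts, of which replicate 1 stood closest. The log2 fold change was 0.85 ± 0.21 (SE; adjusted p = 0.0464, limma); it was 0.66 with median-ratio scaling (adjusted p = 0.0776), 0.72 with quantile normalization (0.0705) and 0.38 with the GC correction (0.356). About 88.1% of the windows of Hist2h2aa1 recur in other histone genes, and its inverted copy Hist2h2aa2, all of whose windows recur, was at about 1 FPKM or less in every heart. The copy of the H3 gene on that side, Hist2h3c2, had 0.972, 0.924, 0.903 and 0.583 FPKM in P1 and 0.24, 0.0635, 0.432 and 0.263 in P7. It was lower in every P7 heart but rested on 7 to 19 fragments in P1 and 1 to 6 in P7, stayed below 1 FPKM and was not tested with the values as deposited. It entered the fit with median-ratio scaling, at -0.66 and an adjusted p of 0.0754, and was called lower with median-ratio scaling and the GC correction together, at -1.12 and 0.0226.

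The other loci of this cluster overlapped between the stages. Hist2h2ab, Hist2h2be, Hist2h3b and Hist2h4 had log2 fold changes of 0.28, 0.14, 0.39 and 0.11, and each turned negative under at least 1 other treatment of the values. Hist2h2ac and Hist2h2bb supplied most of the cluster's signal. The sum over the cluster was 1365 ± 199 FPKM in P1 and 1462 ± 512 in P7 (SD, n = 4).

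Hist1h2be, an H2B gene, and the H4 genes Hist1h4c and Hist1h4f shared a locus at 132, 102, 203 and 33.6 FPKM in P1 and 92.1, 93.2, 131 and 140 in P7. The P7 hearts lay within the range of the P1 hearts (log2 fold change 0.19 ± 0.43 SE; adjusted p = 0.798, limma). Hist1h2be was the only member symbol at more than 1 locus, and its lower locus was not used.

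The small clusters had no called locus. Hist3h2a on chromosome 11 had 41.9, 37.5, 48.8 and 28.5 FPKM in P1 and 53.9, 43.5, 64.6 and 50.3 in P7, with overlap at P7 replicate 2 (log2 fold change 0.44 ± 0.21 SE; adjusted p = 0.288, limma). Its locus also carried the gene Trim17. Its neighbour Hist3h2ba stayed at 1.36 FPKM or below. Hist4h4 on chromosome 6 had 7.66, 6.54, 13.8 and 3.41 FPKM in P1 and 8.81, 10.2, 8.65 and 8.59 in P7. Its P7 hearts lay within the range of the P1 hearts, with an adjusted p of 0.538.

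Members that share a promoter region were compared pair by pair. The annotation holds 13 head-to-head pairs of histone genes with a gap of at most 600 bases. All 13 join an H2A and an H2B gene, with gaps of 175 to 305 bases. In 8 pairs both genes had their own tested locus, and both fold changes were positive in all 8 with the values as deposited. Both were positive in 5 of the 8 with median-ratio scaling, 6 with quantile normalization and 4 with the GC correction, and the genes of the other pairs had opposite signs. Counted singly and as deposited, 16 of 17 tested H2A loci, 12 of 13 tested H2B loci and 67.6% of all loci with a symbol were positive. Whether partners agree more than other H2A and H2B loci was not tested. With the values as deposited, the genes of a pair differed by 0.08 to 0.78 on the log2 scale, with a median of 0.28. Hist1h2bc rose, whereas Hist1h2ac across the 250-base gap shown above was at 2.95, 2.41, 3.08 and 1.88 FPKM in P1 and 2.9, 2.39, 5.2 and 4.08 in P7 (log2 fold change 0.35 ± 0.22 SE, adjusted p = 0.406, limma). The difference within this pair was not tested. Hist1h2bf and its partner Hist1h2ad both had large values, 1.23 and 1.15, and neither was called.

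Levels differed far more between members than between stages. Mean FPKM, which is scaled to length, ran from 0.02 for Hist1h2bq to 1404 for the Hist1h4b and Hist1h4d locus, with a median of 15.4. The 6 loci below 1 FPKM in every heart were Hist1h2aa, Hist1h2aj, Hist1h2ba, Hist1h2bq, Hist1h2br and Hist2h3c2. Hist1h2aa and Hist1h2ba are known as testis forms and Hist1h2aj is annotated as a pseudogene, and all windows of Hist1h2bq and Hist1h2br recur in other histone genes. The testis germ cell markers Tnp1, Prm1, Prm2 and Ddx4 were also at or near 0, with a summed level of 0.0505 to 0.43 FPKM in P1 and 0.0835 to 0.332 in P7.

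The hearts of a group differed in a pattern that many members shared. P7 replicate 2 had the lowest value of the P7 hearts at 42 of the 57 tested loci, including all 10 H3 loci and 14 of the 17 H2A loci. P7 replicate 3 had the highest at 35. Parts of this P7 order were also seen outside the histone loci. The median-ratio factors, taken over loci with a symbol, were lowest in P7 for replicate 2 (0.942) and highest for replicate 3 (1.27). Of the 13 histone chaperones, 8 were lowest in P7 replicate 2 and 10 highest in P7 replicate 3. The low end differed for the 14 S-phase and cell cycle markers: 10 were lowest in P7 replicate 1 and 4 in P7 replicate 2. In P1, replicate 4 was lowest at 30 histone loci, 7 of the 10 H4 and 8 of the 13 H2B loci among them, while 3 of the 5 H1 loci were highest there. Its median-ratio factor, 1.16, was the highest of the P1 hearts. All 5 H1 loci were lowest in P1 replicate 3, whose factor, 0.801, was the lowest. In that heart 28662 loci reached 1 FPKM, against 20269 to 22292 in the others. The FPKM values of all loci summed to 2.14e+06 in P7 replicate 4, against 1.04e+06 to 1.4e+06 in the others. P1 replicate 4 was highest of its group at 12 of the 14 S-phase and cell cycle markers, and P7 replicate 3 at all 14. The locus length offset of P1 replicate 4, 200 bases, was the largest of the 8. The part of these heart-to-heart differences in the comparison of stages was not tested beyond leaving out each heart. Calls depended on single hearts: leaving out replicate 2 or replicate 3 of P1, or replicate 3 or replicate 4 of P7, left 0 histone loci called, and 8 were called without replicate 4 of P1.

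**Figure D4:**
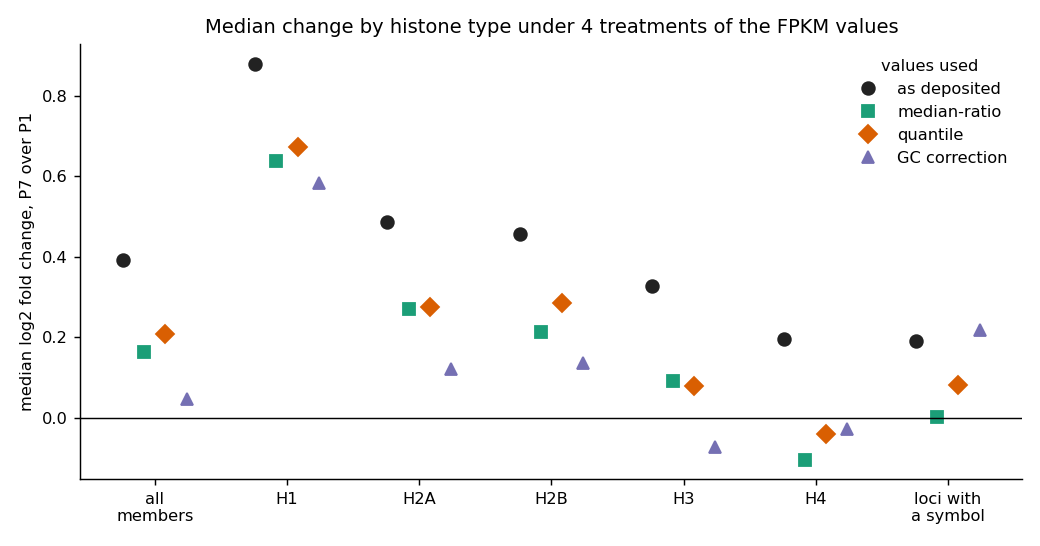
Median log2 fold change of P7 over P1 for all tested histone loci, for the loci of each type and for all tested loci with a gene symbol, with the FPKM values as deposited and under 3 other treatments. H1 has the largest median in every treatment (0.58 to 0.88), and H4 is positive only with the values as deposited (0.20).

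The genes that make S phase and histone messages were looked at alongside. Of 14 markers of S phase and the cell cycle, such as the replication clamp Pcna, the helicase subunits Mcm2 to Mcm7 and Mki67, none was called by limma (1 had a raw p under 0.05, Top2a, with a lower value) and 11 had a negative log2 fold change, with a median of -0.12. Of all tested loci with a symbol, 67.6% had a positive fold change, 7.74% were called higher and 0.401% lower. A raw p under 0.05 with a lower P7 value was met by 4.1% of them. Their sum was 256.9, 218.9, 207.2 and 299.9 FPKM in P1 and 145.1, 159.3, 317.9 and 262.2 in P7. P7 replicates 1 and 2 lay below all P1 hearts and P7 replicates 3 and 4 did not. Pcna had 63.2 ± 9.43 FPKM in P1 and 61.2 ± 24.1 in P7 (SD, n = 4). Median-ratio scaling called the topoisomerase Top2a lower, at -0.83 and an adjusted p of 0.0343, against -0.59 and 0.245 with the values as deposited.

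Of 13 genes for processing and decay of histone messages, 12 were tested and none was called by limma, with 3 at a raw p under 0.05, all with higher P7 values. Among tested loci with a symbol, 25.6% met that raw p with higher and 4.1% with lower P7 values, and 7.74% were called higher and 0.401% lower. Slbp had 26.5 ± 7.15 FPKM in P1 and 30.6 ± 5.59 in P7, with a log2 fold change of 0.21 ± 0.22 (SE). Npat, the coactivator of histone gene transcription, had -0.31 ± 0.20, and Lsm10, a subunit of the particle that cuts histone precursors, had 0.76 ± 0.24 (SE); their adjusted p-values were 0.403 and 0.108 (limma). With median-ratio scaling Npat was called lower, at -0.52 and an adjusted p of 0.0308. Zfp473 was below 1 FPKM in all hearts. None of the 13 histone chaperones was called by limma (2 had a raw p under 0.05, 1 in each direction), and Nasp, a carrier of H1 and H3, had the most negative value, -0.57 ± 0.19 (SE; adjusted p = 0.14, limma). It was called lower with median-ratio scaling, at -0.80 and an adjusted p of 0.0113. So was Hat1, an acetyltransferase subunit in the chaperone list, at -0.59 and 0.0286 against -0.35 and 0.354 with the values as deposited. Quantile normalization called Top2a, Npat, Nasp and Hat1 lower as well, and the GC correction called none of them.

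The 11 replacement histones, which are made outside S phase as well, were followed next. Of all tested loci with a symbol, 67.6% had a positive log2 fold change and 7.74% were called higher. All 11 had a positive log2 fold change, with a median of 0.64, and 4 rose: H1f0, the linker histone of resting cells, by 0.93 ± 0.23; H2afv by 0.76 ± 0.18; H2afj by 0.80 ± 0.17; and the centromeric H3 Cenpa by 0.92 ± 0.21 on the log2 scale (SE; adjusted p of 0.0401, 0.0392, 0.0282 and 0.0356, limma). With median-ratio scaling 3 of these 4 were called; H2afv kept an adjusted p of 0.0419 but its means differed by 1.43 times, under the fold threshold. Quantile normalization called H1f0 and Cenpa alone. With the GC correction H2afv and Cenpa were called, and the adjusted p was 0.0856 for H1f0 and 0.136 for H2afj. H3f3a, the most abundant, went from 866 ± 156 to 1150 ± 73.7 FPKM (SD, n = 4; log2 fold change 0.43, adjusted p = 0.318). With the values as deposited, the sum of the list was 1260 to 1657 FPKM in P1 and 1820 to 2397 in P7, without overlap. The median-ratio factors were 0.801 to 1.16 in P1 and 0.942 to 1.27 in P7. The sums were not rescaled by them, so the separation is shown for the deposited values only.

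**Figure D5:**
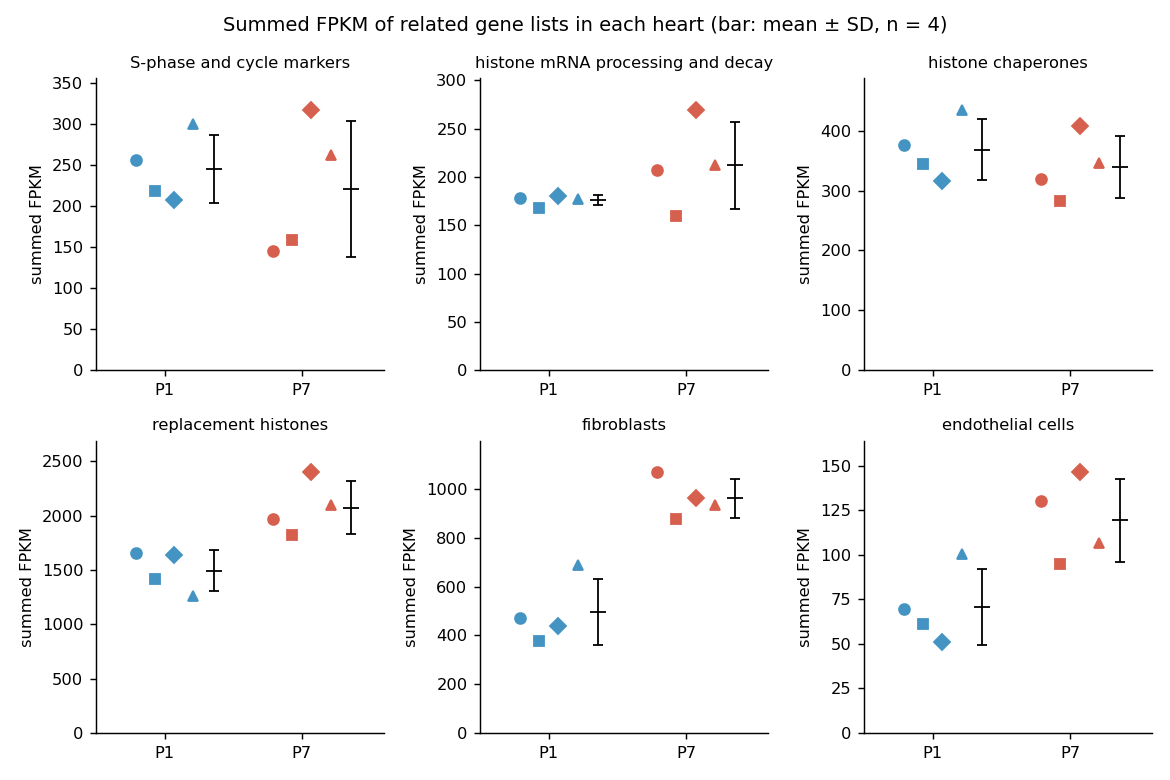
FPKM summed over 6 related gene lists in each heart, with the mean ± SD (n = 4). With the values as deposited, the P7 sums of replacement histones and of fibroblast markers all exceed the P1 sums, and those of S-phase and cycle markers overlap.

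Markers of other cardiac cells were measured beside them. Of the 19 markers of fibroblasts, endothelial cells, leukocytes and red blood cell precursors tested, 5 were called, all higher. Of all tested loci with a symbol, 7.74% were called higher and 0.401% lower, and 25.6% had a raw p under 0.05 with a higher P7 value. Of 4 fibroblast markers, Col1a1 and Dcn rose, and the list summed to 377.1 to 689.8 FPKM in P1 and 878.6 to 1068 in P7. Of 4 endothelial markers, Cdh5 and Tie1 rose, with sums of 50.75 to 100.3 and 94.53 to 146.2 FPKM. Lyz2 alone of the 4 leukocyte markers rose, with sums of 15.44 to 21.2 and 34.01 to 46.54. None of the 5 cardiomyocyte markers (sums of 7909 to 14420 and 8500 to 14870) and none of the 7 markers of red blood cell precursors found (sums of 1637 to 3852 and 3745 to 5026) was called by limma, with 1 and 5 at a raw p under 0.05, all with higher P7 values. With the GC correction Dcn and Lyz2 were called, and the adjusted p was 0.193 for Col1a1, 0.0794 for Cdh5 and 0.105 for Tie1. No marker of these 5 lists was at 0 in every heart. The part of cell composition in the histone values was not tested.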

How the data were processed

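RNA-seq of 8 hearts was analysed, 1 library each. Per the sources, paired-end reads of ScriptSeq libraries (100 cycles in each direction) were aligned to GRCm38, and the authors' provider summed fragments over loci and deposited 1 table of FPKM values per heart, with 80155 loci of which 39614 carry a symbol. The aligner, the strand setting and the handling of reads with several matches are not given in the sources used here. A row without a locus name in each table was left out.

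FPKM values were used as deposited, so no count model was fitted. Loci that reached 1 FPKM in any heart were fitted on log2(FPKM + 1) with limma 3.58.1 in R 4.3.3 (empirical Bayes with a trend on the mean, stage as the only term), which understates changes of low loci. The fit was tested on simulated data. P-values measure the spread between hearts. The value of 1 fragment was taken from the spacing of FPKM values at short unnamed loci. Annotation came from GENCODE M21 and RefSeq (GRCm38.p6); all 69 members matched.

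The members, the gene lists and the alternatives were chosen with earlier results of these data known. Named loci were the 3 highest tested loci of each type, every called locus, the tested Hist2h, Hist3h and Hist4h loci and the 3 smallest raw p-values in each direction; other members were named after their values were seen. Alternatives changed the pseudocount (0.1), the filter, scaling, weights, prior, replicate block, loci with several symbols, the fold threshold and the hearts used.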

Additional observations from a re-analysis of the deposited data

Results flagged for a closer look

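Among the 57 tested histone loci, each stage's 4 hearts were checked for a heart that stands apart from its group, 114 groups in all. Chance picks about 1 group in 20, or 5.7 here, and 3 were picked, which is fewer.

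In P1, the locus of Hist1h2bb and Hist1h2bg was set apart because replicate 4 reached 1380 FPKM while the other P1 hearts lay between 312 and 492; the gap took up 0.831 of the range of the group. In P7, replicate 2 had 7.56 FPKM of Hist1h3a where the others had 15.9 to 16.8, a gap of 0.905 of the range. Hist4h4 in P7 replicate 2 had 10.2 FPKM where the others had 8.59 to 8.81, a gap of 0.868 of the range.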

How the results depend on the processing

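Calls rested on few hearts and on the settings, while directions of the 4 called loci did not reverse under any alternative run. The main counts were 4 histone loci (1 H1, 1 H2A, 1 H2B, 0 H3, 0 H4 and 1 locus of several types), 1650 loci in all and 4 genes of the lists for replacement histones, message processing, chaperones and S phase. Leaving out each heart gave 0 to 8 histone loci (H1 0 to 2, H2A 0 to 3, H2B 0 to 2), 199 to 3379 loci in all and 0 to 10 list genes. The count was 0 without P1 replicate 2, P1 replicate 3, P7 replicate 3 or P7 replicate 4, 1 without P7 replicate 1 (Hist1h2al, lower), 6 without P7 replicate 2 and 8 without P1 replicate 4.

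With no filter on low values, 0 histone loci (0 H1, 0 H2A, 0 H2B), 686 loci and 1 list gene were called. With 1 FPKM required in every heart these were 8 (2 H1, 2 H2A, 2 H2B, 1 H3), 2711 and 7. Sample quality weights gave 8 (2 H1, 3 H2A, 2 H2B), 3697 and 7. A prior without a trend gave 1 (0 H1, 0 H2B), 1079 and 1. Median-ratio scaling gave 2 H1 and 0 H2A loci and 7 list genes, 3 higher and 4 lower where the 4 main ones were all higher, and turned the split of all calls from 1490 higher and 160 lower to 1472 and 896. Quantile normalization gave 2 H1 loci. The corrections for GC content were chosen after the data were seen: alone, 1 histone locus (0 H1, 0 H2A), 497 loci and 2 list genes were called, and with median-ratio scaling 2 (0 H1, 0 H2A, 1 H3; Hist1h2bc higher and the H3 gene Hist2h3c2 lower), 1051 and 2. Median-ratio scaling, a pseudocount of 0.1 and the loci with 1 symbol each gave 3 histone loci, and quantile normalization and the adjusted p alone 4. The causes were not tested.

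The labels do not say whether hearts of equal replicate number belong together. Correlations of the deviations of same-numbered hearts were 0.0581, 0.218, -0.276 and -0.124. With the replicate number as a block, 6 histone loci (2 H1, 2 H2A, 2 H2B) and 0 list genes were called, 5 higher and Hist1h2al lower; with the GC correction and the replicate block, 3 histone loci, 551 loci and 0 list genes. Loci below 1 FPKM rest on few fragments.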
